A study of Homo sapiens with 183 samples.

Results

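The knockout of KLF5 in BxPC-3, an established human pancreatic cancer line of the basal-like kind, was sequenced in 2 experiments that together hold 14 of the 183 libraries of the series. Experiment 2, the larger, set 4 libraries labelled sgKLF5 against 4 labelled sgRosa, and experiment 1 set 4 sgKLF5 libraries against 2 sgRosa libraries of its own. The sgRosa guides cut the ROSA26 locus, so the control cells carry Cas9 and a guide but keep KLF5. In all 14 libraries the cells were taken on day 5 and their polyA RNA was sequenced. Infected Cas9-expressing cells make up each culture, so some cells of an sgKLF5 library may still hold an intact gene. The libraries were chosen by line, guide and experiment number in their titles, and the batch field of the labels holds the same value for all of them. Which KLF5 guide a given library carries is not stated. Whether libraries of a group came from separate cultures cannot be read from the labels, and p-values therefore measure the spread between these libraries. Experiment 2 also held 2 libraries each of sgCDK1 and sgRpa3, knockouts of genes that every dividing cell needs, which served as a second comparison for sgKLF5. It further held 4 sgRUVBL1 and 3 sgRUVBL2 libraries, and experiment 1 held 2 sgRpa3 libraries. These were not compared with sgKLF5 by a test, but they entered the expression filter and the estimate of spread.

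KLF5 is a zinc finger transcription factor of the KLF and SP family, whose members bind GC-rich DNA and the related CACCC box. It is abundant in the proliferating layers of gut and stratified epithelia, where it helps to keep epithelial cells dividing and committed to their lineage. Pancreatic cancers are commonly divided into a classical kind, which keeps glandular markers such as mucins, and a basal-like kind, which expresses keratins, laminins and serpins of squamous epithelium.

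The results turn on 3 groups of genes, and short stretches of their promoters are shown because each group is known for its own binding motif. The stretches lie upstream of the RefSeq transcription start on GRCh38.p14 and are written 5′ to 3′ on the strand of the gene. In genes of chemokines and cytokines, of which 13 rose in both experiments, the capitals mark matches to an NF-kappa-B-type site, GGG and TTCC with any 3 bases between them, named after the factor that switches on inflammatory genes.
CXCL1, chr4:73869273-73869392, plus strand: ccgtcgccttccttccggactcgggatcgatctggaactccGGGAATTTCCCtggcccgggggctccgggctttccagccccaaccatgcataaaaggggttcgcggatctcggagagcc
CXCL5, chr4:73998678-73998797, minus strand: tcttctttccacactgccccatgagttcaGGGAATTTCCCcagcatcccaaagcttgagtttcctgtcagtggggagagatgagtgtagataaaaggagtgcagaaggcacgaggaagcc
CXCL6, chr4:73836558-73836677, plus strand: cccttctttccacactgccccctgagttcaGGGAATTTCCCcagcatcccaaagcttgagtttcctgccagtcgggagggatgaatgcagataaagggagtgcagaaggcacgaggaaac
IL6, chr7:22727080-22727199, plus strand: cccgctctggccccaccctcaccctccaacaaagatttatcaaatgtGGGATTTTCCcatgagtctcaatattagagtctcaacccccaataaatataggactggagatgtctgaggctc
In CXCL1, CXCL5 and CXCL6 the capitals hold 2 matches, one on each strand, which overlap with an offset of 1 base. In interferon-stimulated genes, of which 21 rose in experiment 2 and fell in experiment 1, the capitals mark GAAA repeated after any 2 bases, on either strand, a form of the interferon-stimulated response element bound by STAT and IRF factors, and neighbouring matches may overlap.
IFIT1, chr10:89392473-89392622, plus strand: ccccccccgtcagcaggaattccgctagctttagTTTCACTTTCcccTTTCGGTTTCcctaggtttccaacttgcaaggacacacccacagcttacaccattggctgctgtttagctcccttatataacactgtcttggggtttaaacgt
ISG15, chr1:1013347-1013496, plus strand: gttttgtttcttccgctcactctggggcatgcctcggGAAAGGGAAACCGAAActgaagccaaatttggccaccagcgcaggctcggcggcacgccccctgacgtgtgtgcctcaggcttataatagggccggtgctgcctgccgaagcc
IFI44L, chr1:78620298-78620447, plus strand: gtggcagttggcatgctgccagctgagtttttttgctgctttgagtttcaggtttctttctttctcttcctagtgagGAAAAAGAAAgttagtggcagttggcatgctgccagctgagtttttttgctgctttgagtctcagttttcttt
In direct KLF5 targets that fell in both experiments, the capitals mark the CACCC box, CCACCC or its complement GGGTGG.
KLK11, chr19:51027647-51027796, minus strand: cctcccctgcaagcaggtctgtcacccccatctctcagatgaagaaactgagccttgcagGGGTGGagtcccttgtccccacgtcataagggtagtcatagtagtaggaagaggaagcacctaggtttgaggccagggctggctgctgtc
RARG, chr12:53232210-53232359, minus strand: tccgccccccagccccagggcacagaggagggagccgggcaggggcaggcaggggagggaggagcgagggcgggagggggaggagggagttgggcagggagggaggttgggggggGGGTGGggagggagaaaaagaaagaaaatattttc
VILL, chr3:37993988-37994137, plus strand: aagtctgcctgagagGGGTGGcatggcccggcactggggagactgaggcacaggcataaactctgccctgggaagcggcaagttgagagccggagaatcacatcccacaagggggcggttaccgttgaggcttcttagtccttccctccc

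Over the first 250 upstream bases, read on both strands, the NF-kappa-B-type site stood in 9 of the 23 chemokine and cytokine promoters with a sequence (39.1%) and in 6.74% of the promoters of all tested genes. The interferon-stimulated response element stood in 20 of 32 promoters of interferon-stimulated genes (62.5%), against 2.37% of all. CCACCC stood in 27 of 53 promoters of direct KLF5 targets (50.9%), against 35.1% of all, and the GC box GGGCGG in 34 of 53 (64.2%), against 67.3% of all. A promoter sequence was at hand for 9620 of 12380 tested genes. A match describes these letters and not the binding of a factor.

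Each library summed to 1e+06 TPM, the unit that gives the transcripts of a gene as a share of all transcripts in the library, so read depth is unknown, and between 12228 and 12615 genes per library lay at 1 TPM or more. The epithelial markers KRT7, KRT8, KRT18, KRT19, EPCAM, CDH1, MUC1 and CLDN4 were all expressed. All 8 markers of the basal-like kind were expressed too. KLF5 mRNA itself stood at 348, 362, 384 and 355 TPM with sgKLF5 and 344, 308, 354 and 335 TPM with sgRosa in experiment 2, and at 347, 306, 212 and 237 TPM against 288 and 282 TPM in experiment 1. The groups overlapped in both experiments (log2 fold change 0.11 ± 0.09 SE, adjusted p = 0.36, and -0.08 ± 0.17, adjusted p = 0.83). A Cas9 cut need not lower the mRNA of a gene, so these levels do not check the labels. The sgRosa libraries 1 and 2 of experiment 2 differed from 3 and 4 by a median of 0.14 on the log2 scale over 12380 genes. Another division of the 4 libraries, into 2 and 4 against 1 and 3, gave 0.090, and the division into 1 and 4 against 2 and 3 was not calculated. Library 3 of that group alone held 10 genes far above the other 3, among them CD81, IGFBP7 and PSAP. In experiment 1 the sgKLF5 libraries 1 and 2 deviated together from 3 and 4 (Pearson r of the deviations from the group mean across genes 0.23 within each pair). The labels do not tell whether these pairs carry different guides, and this was not tested. Counts that change with these libraries are given with and without them.

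In experiment 2, 2599 of 12380 genes were higher with sgKLF5 (21.0% of genes tested) and 1685 were lower (13.6%) at an adjusted p under 0.05. In experiment 1, 1003 of 12398 genes were higher (8.09%) and 1004 lower (8.10%). Fold changes are on the scale of log2(TPM + 1), which understates the changes of low genes. The median over all genes was 0.047 in experiment 2 and -0.023 in experiment 1. With median-of-ratios scaling of the libraries, the share of higher genes among those called in experiment 2 moved from 60.7% to 50.0%. Without sgRosa libraries 3 and 4 together, experiment 2 gave 1356 higher and 877 lower genes. Without either of its 2 sgRosa libraries, experiment 1 gave between 487 and 502 higher and between 539 and 542 lower genes. Without its sgKLF5 libraries 1 and 2 it gave 1140 higher and 2330 lower genes, and without 3 and 4 it gave 1276 and 959.

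Of 12068 genes tested in both experiments, 423 were higher in both, which is 16.3% of the higher genes of experiment 2 and 47.4% of those of experiment 1. Another 551 were lower in both, which is 34.3% and 55.4% of the 2 lists. Without either of the sgRosa libraries of experiment 1, these counts were between 247 and 249 and between 344 and 350. In 91 genes the level was higher with sgKLF5 in experiment 2 and lower in experiment 1, and in 55 genes the reverse held. Across genes, the fold changes of the 2 experiments correlated with Pearson's r of 0.50 and Spearman's rho of 0.32, as a description over genes that are not independent of each other. The effect itself differed between the experiments in 2082 of 12440 genes, with 1278 more positive in experiment 2 (10.3%) and 804 more negative (6.46%). Without either of the sgRosa libraries of experiment 1, these were between 652 and 692 and between 434 and 454.

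**Figure D1:**
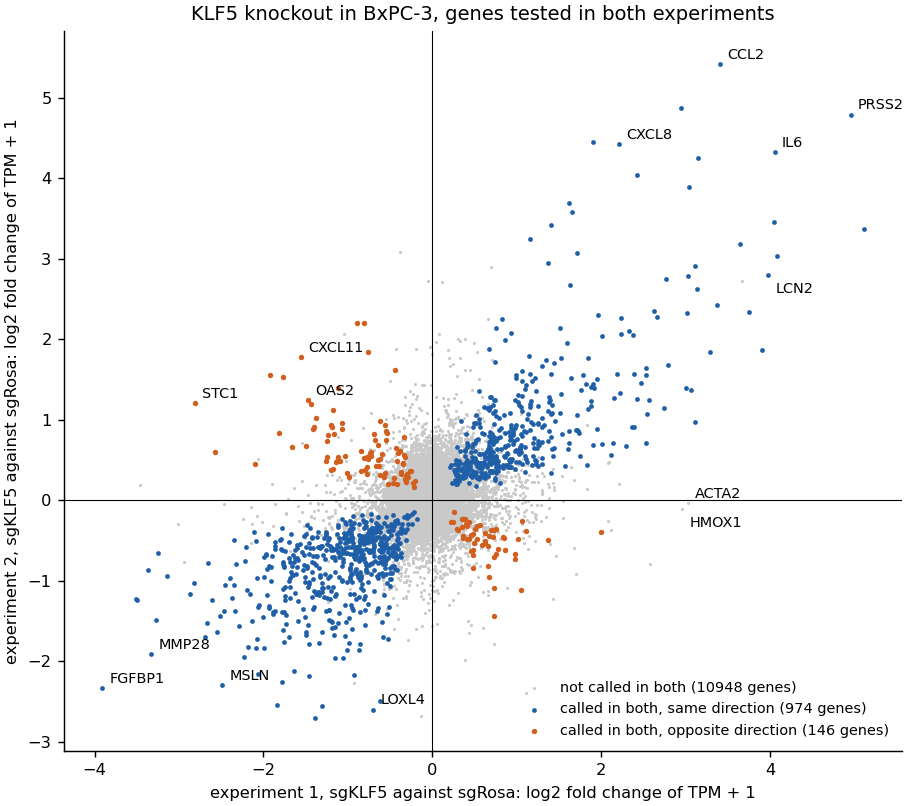
Each point is 1 of 12068 genes tested in both experiments, with its log2 fold change of TPM + 1 (sgKLF5 against sgRosa) in experiment 1 on the horizontal axis and in experiment 2 on the vertical axis. Blue marks genes called in both in the same direction (974) and orange those called in opposite directions (146). PRSS2 and IL6 lie at the upper right and FGFBP1 and MSLN at the lower left, while the place of CCL2 depends on the pseudocount, since its controls are listed at 0.

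Chemokines and cytokines, the secreted signals that draw and activate immune cells, had the highest median fold change of the gene lists examined in experiment 2. Of 31 measured, 25 rose, against 21.0% of all genes, and 2 fell, against 13.6%, and their median log2 fold change was 1.78, against 0.047 over all genes. In experiment 1, 13 rose, against 8.09% of all genes, and 8 fell, against 8.10%, with a median of 0.20, and those 13 had also risen in experiment 2. The difference between the experiments was positive in 22 of the 31, against 10.3% of all genes. CCL2, the main attractant of monocytes, was listed at 0 in all 6 sgRosa libraries. It stood at 42.2, 46.9, 36.4 and 42.5 TPM with sgKLF5 in experiment 2 and at 9.49, 12.6, 7.95 and 9.05 TPM in experiment 1 (adjusted p = 1.2e-12 and 9.2e-06). Every sgKLF5 library held CCL2, and no fold is given against a group listed at 0.

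The neutrophil attractants of the CXC family rose together. CXCL1, whose promoter is shown above, stood at 508, 616, 710 and 665 TPM with sgKLF5 and at 25.3, 26.7, 36.8 and 40.0 TPM with sgRosa in experiment 2 (4.25 ± 0.20, adjusted p = 4e-11). In experiment 1 it stood at 288, 309, 336 and 284 TPM against 32.7 and 34.1 TPM (3.15 ± 0.10, adjusted p = 2.7e-07). The lowest sgKLF5 library thus lay several times above the highest control in either experiment. CXCL8, or interleukin 8, went from 15.1, 10.5, 24.9 and 15.4 TPM to 293, 377, 402 and 365 TPM in experiment 2 (4.42 ± 0.18, adjusted p = 1.9e-11). In experiment 1 it went from 31.9 and 30.7 TPM to 150, 162, 159 and 125 TPM (2.21 ± 0.12, adjusted p = 2.6e-06). CXCL8 rose by less in experiment 1, with a difference of 2.21 ± 0.27 between the experiments (adjusted p = 3.1e-06). CXCL6 stood at 25.6, 39.3, 37.5 and 33.3 TPM against 0.501, 0, 0.297 and 0 TPM in experiment 2, and at 9.31, 9.13, 9.38 and 6.14 TPM against 0.305 and 0.137 TPM in experiment 1. CXCL5, its neighbour on chromosome 4 with a near-identical promoter stretch, stood at 129, 153, 155 and 147 TPM against 8.92, 9.37, 6.23 and 7.58 TPM in experiment 2 (4.04 ± 0.17) and at 67.6, 72.3, 58.2 and 52.3 TPM against 11.6 and 9.94 TPM in experiment 1 (2.43 ± 0.15). Close relatives such as CXCL1 with CXCL2 and CXCL3, or CXCL5 with CXCL6, can share reads, so the division between them is uncertain.

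Interleukin 6, a cytokine of the acute phase response, rose in both experiments, with a difference of 0.27 ± 0.32 between them (adjusted p = 0.64). IL6 stood at 42.4, 53.5, 72.6 and 68.0 TPM against 1.98, 0.777, 2.94 and 2.62 TPM in experiment 2 (4.32 ± 0.23, adjusted p = 2.5e-10), and at 40.5, 36.8, 35.7 and 41.4 TPM against 1.6 and 1.17 TPM in experiment 1 (4.05 ± 0.14, adjusted p = 3.7e-07). CSF3, the growth factor of granulocytes, rose from 0.310, 0.168, 0.278 and 0 TPM to 16.2, 29.4, 29.6 and 26.5 TPM in experiment 2 (4.45 ± 0.20, adjusted p = 3.2e-11) and from 0.668 and 0.724 TPM to between 4.34 and 6.03 TPM in experiment 1 (1.90 ± 0.16). Both cytokines that fell in experiment 2 fell in experiment 1 as well. These were IL18, which activates lymphocytes (-1.15 ± 0.10 and -1.62 ± 0.08), and IL1RN, which blocks the interleukin 1 receptor (-0.80 ± 0.13 and -2.32 ± 0.14). Immune cell markers summed to between 26.2 and 46.1 TPM in experiment 2 and between 29.5 and 47.6 TPM in experiment 1, where both sgRosa libraries lay above all 4 sgKLF5 libraries, and the B cell marker MS4A1 was listed at 0 in all 14.

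**Figure D2:**
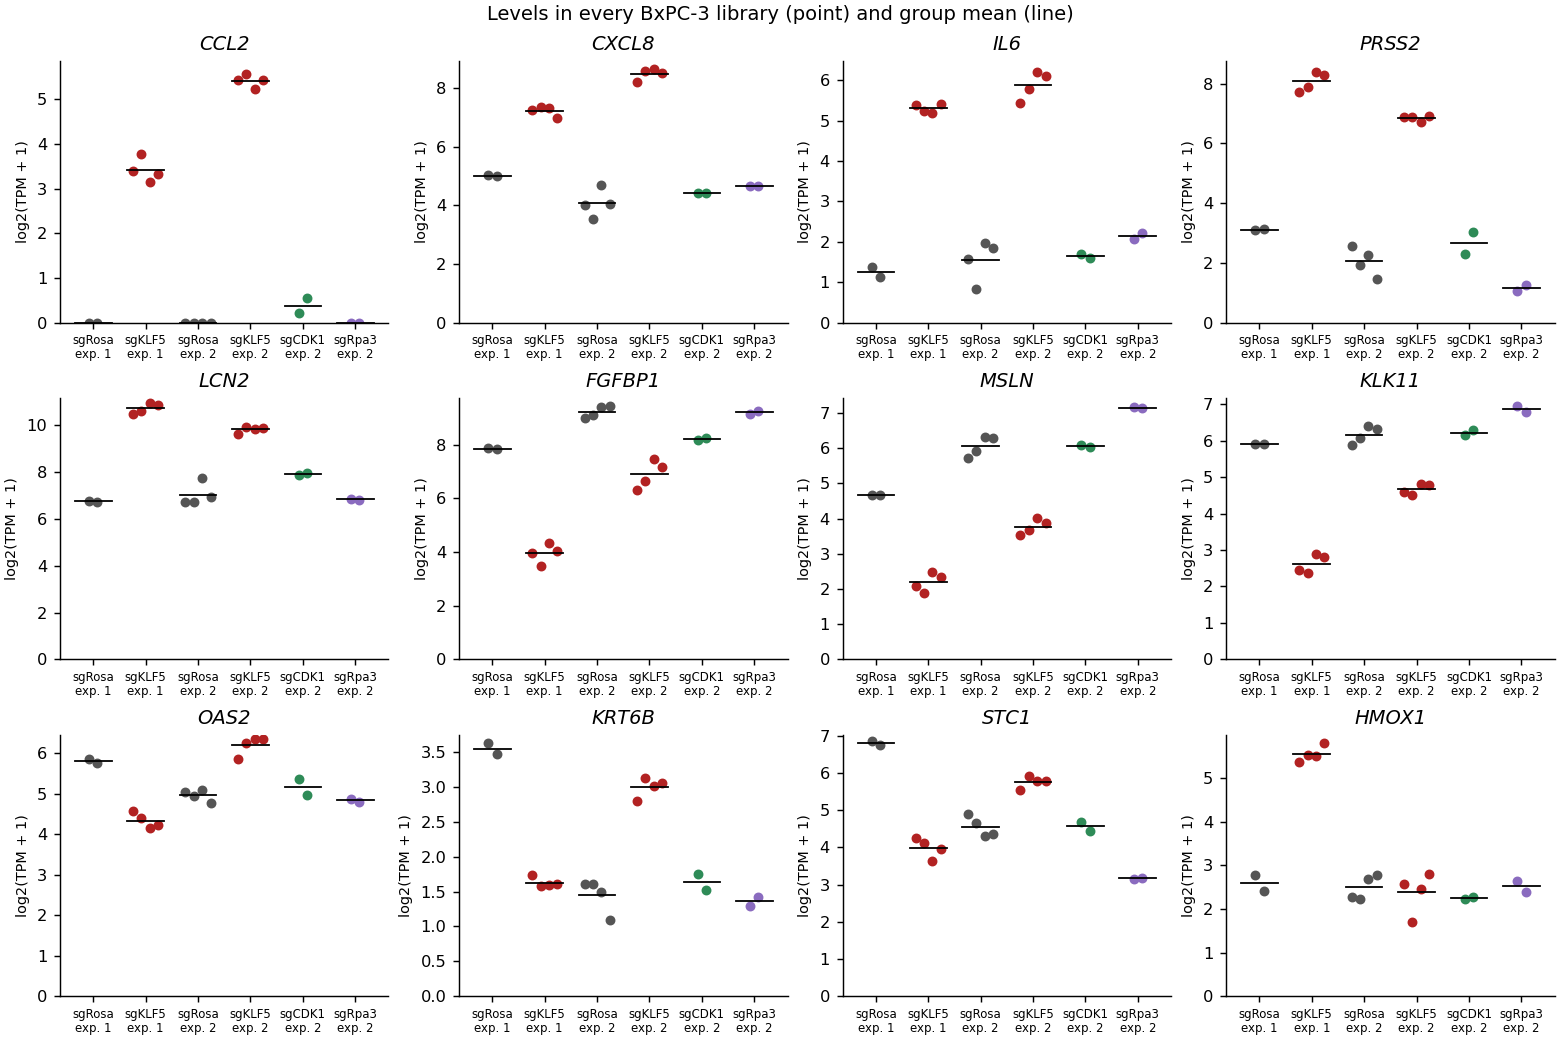
Levels of 12 genes on a linear axis of log2(TPM + 1), with 1 point a library and a line at the group mean, for sgRosa (grey) and sgKLF5 (red) in both experiments and for sgCDK1 (green) and sgRpa3 (purple) in experiment 2. CXCL8, IL6 and PRSS2 are higher in every sgKLF5 library than in any other library of the same experiment, MSLN and KLK11 are lower, and OAS2, KRT6B and STC1 stand on opposite sides of sgRosa in the 2 experiments.

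Other secreted defence proteins and a digestive enzyme rose as well. PRSS2, a trypsinogen of the exocrine pancreas, went from 4.97, 2.85, 3.84 and 1.77 TPM to 118, 117, 105 and 120 TPM in experiment 2 (4.79 ± 0.25, adjusted p = 2.7e-10). In experiment 1 it went from 7.66 and 7.73 TPM to 211, 236, 335 and 313 TPM (4.96 ± 0.18, adjusted p = 3.9e-07). For PRSS2 the difference between the experiments was -0.17 ± 0.37 (adjusted p = 0.82), and its reads can be shared with its paralog PRSS1. The iron-binding protein LCN2, which starves bacteria of siderophores, stood at 796, 971, 920 and 940 TPM against 104, 105, 211 and 119 TPM in experiment 2 (2.80 ± 0.19) and at 1399, 1569, 1979 and 1866 TPM against 108 and 104 TPM in experiment 1 (3.98 ± 0.13). Its highest control was sgRosa library 3 of experiment 2. S100A8 and S100A9, the subunits of the antimicrobial calprotectin, rose by 3.18 ± 0.40 and 2.91 ± 0.24 in experiment 2 and by 3.65 ± 0.23 and 3.11 ± 0.15 in experiment 1. Without sgRosa library 3, S100A9 rose by 3.25 and LCN2 by 3.04 in experiment 2. S100A7, or psoriasin, was listed at 0 in all 6 controls and lay between 5.61 and 9.01 TPM with sgKLF5 in experiment 2 and between 10.0 and 20.6 TPM in experiment 1. Among all 14 measured S100 genes, 4 rose and 6 fell in each experiment, and S100A7, S100A8 and S100A9 were the 3 that rose in both. The shares of all genes that rose and fell were 21.0% and 13.6% in experiment 2 and 8.09% and 8.10% in experiment 1.

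PAEP, the secreted glycoprotein glycodelin, rose to 20.5, 38.1, 60.9 and 50.1 TPM from 1.56, 1.82, 2.57 and 1.14 TPM (3.89 ± 0.26 in experiment 2, 3.04 ± 0.33 in experiment 1). TCIM, a small regulator of transcription, rose by 3.70 ± 0.17 and 1.62 ± 0.12. The stem cell factor SOX2 stood at 14.4, 14.2, 10.6 and 10.4 TPM against 3.12, 2.44, 1.96 and 1.57 TPM in experiment 2 and at 21.0, 23.0, 18.0 and 20.9 TPM against 3.88 and 4.91 TPM in experiment 1 (2.04 ± 0.18 and 2.01 ± 0.15). Of 19 basal and squamous transcription factors tested in both experiments, only SOX2 rose in both, while 7 fell in both. HMGA2 rose in experiment 2 and fell in experiment 1. Of all 12068 genes tested in both, 423 rose in both and 551 fell in both. By experiment, 3 of 19 factors rose and 8 fell in experiment 2, against 21.0% and 13.6% of all genes. In experiment 1, 3 of 20 rose and 11 fell, against 8.09% and 8.10%. ID1, which holds back differentiation by blocking basic helix-loop-helix factors, fell from 369, 414, 427 and 417 TPM to 173, 198, 186 and 201 TPM in experiment 2 (-1.10 ± 0.08) and from 262 and 251 TPM to 106, 96.0, 107 and 107 TPM in experiment 1 (-1.30 ± 0.09). GDF15 and ADM, secreted hormones of stressed cells, rose by 1.56 ± 0.15 and 1.45 ± 0.13 in experiment 2 and by 2.53 ± 0.11 and 2.47 ± 0.09 in experiment 1. LRIG1 and LRIG3, which bind receptors of the EGF family, rose in both, as did ERRFI1, which inhibits them (LRIG1 1.43 ± 0.15 and 1.11 ± 0.14). Of the 13 members of the EGF receptor list tested in both experiments, these were the 3 that rose in both. NRG1 fell in both, and HBEGF rose in experiment 2 and fell in experiment 1. MMP7, a secreted protease of epithelia, rose by 1.70 ± 0.16 and 1.44 ± 0.14.

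Among the genes that fell in both experiments, those that fell most in experiment 2 included secreted and surface proteins of epithelial and mesothelial cells. FGFBP1, which releases fibroblast growth factors from the matrix, fell from 511, 547, 680 and 700 TPM to 78.6, 101, 176 and 144 TPM in experiment 2 (-2.33 ± 0.18, adjusted p = 2.4e-08). MSLN, the surface antigen mesothelin, fell from 51.9, 59.9, 78.0 and 77.3 TPM to 10.5, 11.7, 15.0 and 13.5 TPM in experiment 2 (-2.30 ± 0.16, adjusted p = 8.2e-09) and from 24.4 and 24.7 TPM to 3.21, 2.68, 4.57 and 4.02 TPM in experiment 1 (-2.49 ± 0.18, adjusted p = 1.3e-05). For MSLN the 2 effects differed by less than their error, with a difference of 0.19 ± 0.25 (adjusted p = 0.67). The uroplakin UPK3B, a membrane protein of the bladder lining, fell by 2.18 and 1.45 on the log2 scale. ADAMTSL4, a matrix protein that binds fibrillin, fell from 15.1, 19.6, 30.8 and 32.9 TPM to 1.49, 3.12, 4.77 and 4.16 TPM in experiment 2. ITGB7, an integrin chain, fell by 2.27 in experiment 2 and by 1.79 in experiment 1. LOXL4, a matrix cross-linking oxidase, fell to 2.50, 3.24, 3.97 and 2.68 TPM from 15.8, 17.1, 31.5 and 36.7 TPM in experiment 2 (-2.60 ± 0.24) and by 0.70 in experiment 1. TNNC1, the slow troponin C, fell to 11.7, 10.7, 12.8 and 14.5 TPM from 52.1, 51.2, 116 and 118 TPM (-2.56 ± 0.24) and by 1.31 in experiment 1. In both genes the sgRosa libraries 3 and 4 lay above 1 and 2, and every sgKLF5 library lay below all 4. JPH2 fell by 2.50 and 0.62, and a row that the table names only Lutheran by 2.71 and 1.4. WNT10A, a secreted Wnt ligand of skin and its appendages, fell in both (-1.73 ± 0.11 and -2.08 ± 0.14).

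Direct KLF5 targets in T3M-4, another basal-like line, fell in BxPC-3. The study drew this list from newly made RNA after acute KLF5 degradation in T3M-4, and not from these libraries. It kept genes that fell in every replicate it analysed and that had a KLF5 ChIP-seq peak, a site of KLF5 binding, at or beside them. Of 83 measured in experiment 2, 67 fell and 1 rose, with a median of -0.71. Of 82 in experiment 1, 70 fell and 1 rose, with a median of -1.16. In both experiments 61 fell, and 56 of these were also lower than with sgCDK1 and sgRpa3. That comparison uses the sgKLF5 libraries of experiment 2 again. The target that rose in both was PI3, the protease inhibitor elafin, which stood at 259, 394, 495 and 460 TPM against 72.1, 76.8, 133 and 138 TPM in experiment 2 (1.95 ± 0.24) and at 161, 182, 293 and 273 TPM against 68.2 and 76.6 TPM in experiment 1 (1.59 ± 0.22). KLK11, a secreted serine protease of the kallikrein cluster whose promoter is shown above, fell from 57.3, 66.2, 83.6 and 78.7 TPM to 23.3, 21.7, 27.0 and 26.6 TPM in experiment 2 (-1.49 ± 0.12) and from 58.6 and 58.8 TPM to 4.44, 4.19, 6.37 and 6.04 TPM in experiment 1 (-3.27 ± 0.16). The tetraspanin CD9 fell in both (-0.72 ± 0.08 and -0.54 ± 0.07). Of 633 genes that the study assigned to KLF5 peaks of the basal-like kind, 157 fell and 97 rose in experiment 2, with a median of -0.055, and in experiment 1 108 of 635 fell and 41 rose, with a median of -0.11. The share that rose lay under that of all genes in both experiments (21.0% and 8.09%), and the share that fell lay above it (13.6% and 8.10%). Without sgRosa library 2 of experiment 1, 61 of them fell there, and without library 1, 23 rose.

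Among structural genes of squamous epithelium, the keratins, the hemidesmosome and the desmosome held more falls than rises in both experiments, where 13.6% of all genes fell and 21.0% rose in experiment 2 and 8.10% and 8.09% in experiment 1. Of the stratified epithelial keratins, which build the filaments of the epidermis, 7 of 13 fell and 2 rose in experiment 2 (median -0.66), and 8 of 10 fell and 1 rose in experiment 1 (median -1.68). Of laminin-332 and the hemidesmosome, which anchor basal cells to the matrix, 7 of 13 fell and 1 rose in experiment 2 and 11 of 13 fell in experiment 1. ITGB4, the beta chain of the hemidesmosome integrin, fell from 243, 262, 304 and 315 TPM to 97.3, 111, 120 and 117 TPM in experiment 2 (-1.32 ± 0.17) and from 213 and 224 TPM to 59.4, 52.3, 41.4 and 54.1 TPM in experiment 1 (-2.07 ± 0.13). ITGA6, its partner chain, fell by 0.71 in experiment 2 and by 2.00 in experiment 1. The 7 hemidesmosome genes that fell in experiment 2 all fell in experiment 1, and for 7 of the 13 the effect was the more negative in experiment 1 by the test of the difference. Of 11 desmosome genes, which join neighbouring epithelial cells, 6 fell in experiment 2 and 7 in experiment 1, with 4 in common, among them the cadherin DSG3 (-0.62 ± 0.11 and -1.78 ± 0.19). Of clade B serpins, protease inhibitors of squamous cells, 3 of 11 fell and SERPINB8 rose in experiment 2, while 8 of 11 fell in experiment 1, including SERPINB2, which went from 1481, 1379, 1280 and 1221 TPM to 632, 726, 912 and 876 TPM in experiment 2 (-0.78 ± 0.12) and from 977 and 929 TPM to 185, 156, 140 and 128 TPM in experiment 1 (-2.65 ± 0.13).

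The cornified envelope, the protein shell of dead skin cells, split into both directions in experiment 2, where 21.0% of all genes rose and 13.6% fell. There 8 of 21 genes rose (SPRR2A, SPRR2D, SPRR2E, SPRR2F, CSTA, CSTB, RHCG and ABCA12) and 8 fell, among them the filaggrin gene FLG from 4.66, 5.32, 4.46 and 4.13 TPM to 0.970, 1.19, 1.15 and 1.25 TPM (-1.4 ± 0.17) and the plakin PPL (-1.13 ± 0.13). In experiment 1, 9 of 16 fell, and 6 fell in both. KRT6B showed the same split among keratins, going from 2.04, 2.05, 1.81 and 1.13 TPM to 5.95, 7.74, 7.06 and 7.34 TPM in experiment 2 and from 11.3 and 10.1 TPM to 2.34, 1.98, 2.02 and 2.04 TPM in experiment 1. The difference between the experiments was 3.47 ± 0.32 (adjusted p = 7e-08). KRT6B can share reads with KRT6A and KRT6C. KRT23, a keratin of simple epithelia, rose in both (2.28 ± 0.19 and 2.66 ± 0.10), while KRT19 fell in both (-0.54 ± 0.07 and -1.04 ± 0.10). Of the kallikrein-related peptidases and their inhibitors, 7 of 14 fell in experiment 2, and in experiment 1 5 of 11 fell and 2 rose. Leaving out single libraries gave between 3 and 5 that fell in experiment 1. Of the 18 tight junction and claudin genes, 8 fell and 1 rose in experiment 2 and 1 fell and 3 rose in experiment 1, where 8.10% of all genes fell and 8.09% rose. CLDN4 went from 702, 778, 1025 and 1050 TPM to 467, 521, 650 and 636 TPM in experiment 2 and from 264 and 274 TPM to between 342 and 400 TPM in experiment 1. Without sgKLF5 library 1, 4 tight junction genes fell in experiment 2, and without sgRosa library 1, 1 rose in experiment 1.

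**Figure D3:**
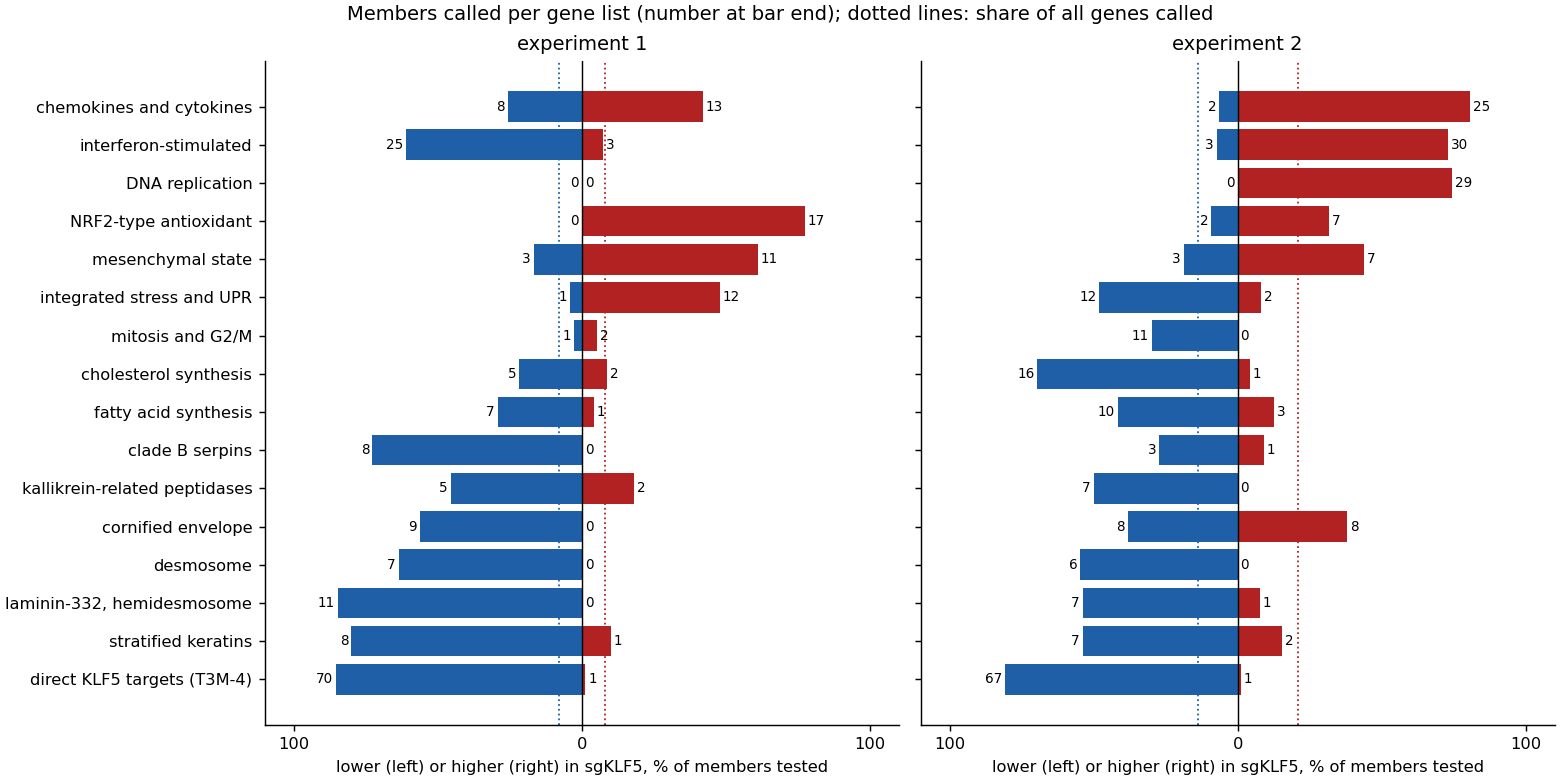
Bars give the percentage of tested members of 16 gene lists called lower (blue, to the left) or higher (red, to the right) with sgKLF5, with the number of genes at the bar end and experiment 1 beside experiment 2. Dotted lines mark the share of all genes called in that direction, 8.10% and 8.09% in experiment 1 and 13.6% and 21.0% in experiment 2. Direct KLF5 targets reach to the left in both panels, and interferon-stimulated genes to the left in experiment 1 and to the right in experiment 2.

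Interferon-stimulated genes, which cells switch on to resist viruses, moved in opposite directions in the 2 experiments. Of 41 measured, 30 rose and 3 fell in experiment 2 (median 0.61), and 3 rose and 25 fell in experiment 1 (median -0.84). Of all genes, 21.0% rose and 13.6% fell in experiment 2, and 8.09% rose and 8.10% fell in experiment 1, so the share that rose in experiment 1 was close to that of all genes. The same 21 genes rose in experiment 2 and fell in experiment 1, and the difference between the experiments passed the test upwards in 29 and downwards in 4. OAS2, which makes the activator of RNase L, stood at 56.7, 75.4, 80.3 and 80.3 TPM against 31.6, 29.5, 32.8 and 26.4 TPM in experiment 2 (1.25 ± 0.13, adjusted p = 8.2e-07). In experiment 1 it stood at 22.6, 19.9, 16.6 and 17.8 TPM against 57.1 and 52.7 TPM (-1.47 ± 0.14, adjusted p = 5.6e-05). The sgKLF5 libraries lay above all controls in experiment 2 and below both controls in experiment 1. USP18, which damps interferon signalling, went from 4.61, 3.92, 3.01 and 2.42 TPM to 13, 17.4, 15.1 and 13.9 TPM in experiment 2 (1.84 ± 0.21) and from 12.2 and 11.1 TPM to 6.85, 6.17, 6.42 and 6.49 TPM in experiment 1 (-0.76 ± 0.13). The control level itself was thus higher in experiment 1 for both genes. The mean level of the list on the log2(TPM + 1) scale was between 5.41 and 5.58 in the sgRosa libraries and between 5.91 and 6.24 in the sgKLF5 libraries of experiment 2. In experiment 1 it was 5.74 and 5.68 with sgRosa and between 4.96 and 5.15 with sgKLF5.

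Of the interferon-inducible chemokines, CXCL11 and CCL5 rose in experiment 2 and fell in experiment 1, while CXCL10 rose in experiment 2 and was not called in experiment 1. CXCL10, an attractant of T cells, went from 19.0, 11.4, 12.7 and 10.9 TPM to 105, 129, 126 and 119 TPM in experiment 2 (3.09 ± 0.23, adjusted p = 1.3e-08), and stood at 38.6, 37.1, 36.4 and 22.9 TPM against 47.7 and 39.4 TPM in experiment 1. CXCL11, its close relative, rose by 1.78 ± 0.20 in experiment 2 and fell from 78.0 and 66.4 TPM to 26.7, 24.0, 25.4 and 20.1 TPM in experiment 1 (-1.55 ± 0.15). The difference between the experiments was 3.47 ± 0.35 for CXCL10 and 3.33 ± 0.29 for CXCL11. CCL5 rose by 0.82 ± 0.12 and fell by 1.17. The exceptions among interferon-stimulated genes in experiment 2 were IFITM2, IFITM3 and IRF1, which fell (-1.01 ± 0.12, -0.37 ± 0.10 and -0.62 ± 0.10). The exceptions in experiment 1 were BST2, GBP2 and IFITM1, which rose (0.29 ± 0.08, 1.75 ± 0.14 and 0.42 ± 0.09). Of 20 measured HLA and antigen presentation genes, 3 rose and 2 fell in experiment 2 and 4 rose and 1 fell in experiment 1, and HLA-B and CD74 rose in both. In experiment 2 these shares lie under those of all genes (21.0% and 13.6%), both falls were lost without sgRosa library 3 or 4, and the rise of HLA-B was lost without sgRosa library 2 (adjusted p = 0.056). The counts of interferon-stimulated genes were between 27 and 30 in experiment 2 and between 18 and 25 in experiment 1 when any 1 library was left out.

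**Figure D4:**
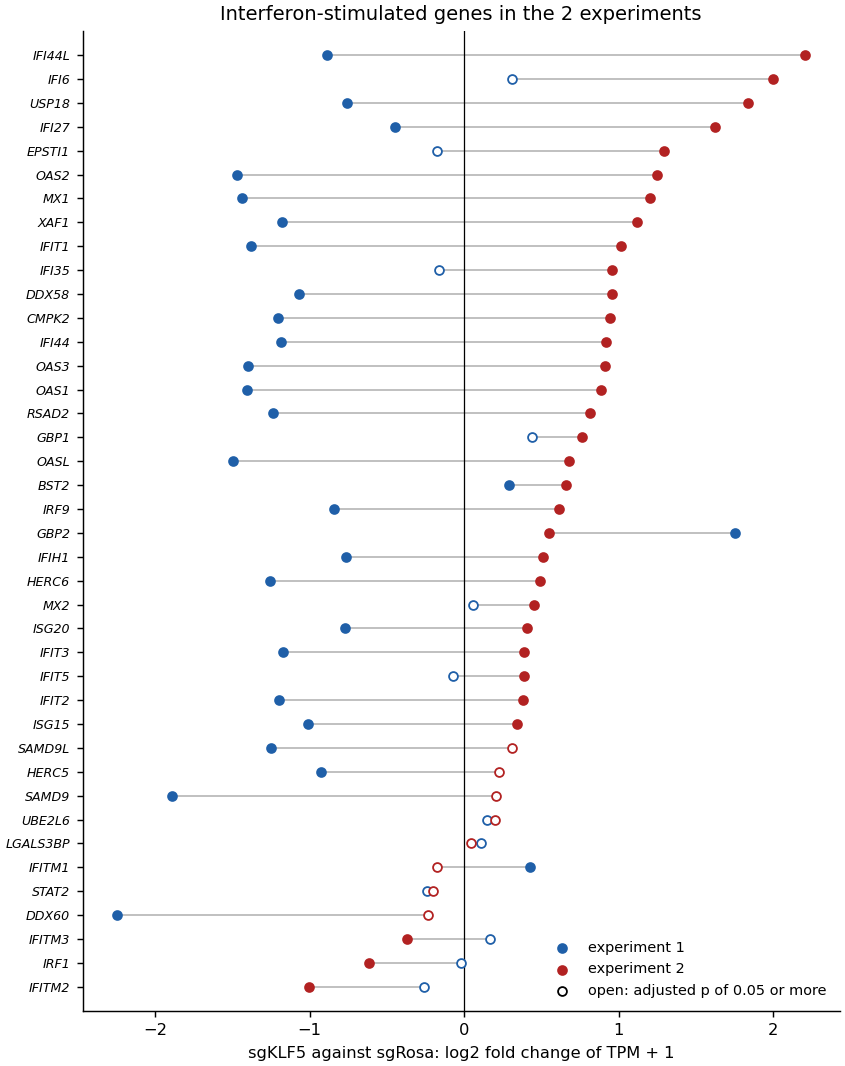
Log2 fold change of TPM + 1 (sgKLF5 against sgRosa) of interferon-stimulated genes, 1 a row and 1 of the 41 not shown, in experiment 1 (blue) and experiment 2 (red), joined by a line, with open points where the adjusted p is 0.05 or more. Most filled points lie to the right of 0 in experiment 2 and to the left in experiment 1.

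STC1, SPINK4 and HMOX1 were among the 10 genes named for the largest differences between the experiments. STC1, a secreted hormone of calcium balance, stood at 45.8, 59.5, 54.5 and 54.8 TPM against 28.8, 24.2, 19.0 and 19.7 TPM in experiment 2 (1.2 ± 0.23) and at 18.1, 16.5, 11.4 and 14.4 TPM against 115 and 107 TPM in experiment 1 (-2.81 ± 0.16), a difference of 4.02 ± 0.34 (adjusted p = 2.6e-08). The gelatinase MMP9 rose from between 1.04 and 1.41 TPM to between 4.43 and 5.91 TPM in experiment 2 and fell from 42.7 and 43.4 TPM to 12.8, 11.1, 11.7 and 12.3 TPM in experiment 1. MMP9 thus began from control levels that were many times apart. SPINK4, a protease inhibitor of goblet cells, stood at 24.1, 19.8, 24.3 and 28.9 TPM against 25.7, 28.8, 16.3 and 16.3 TPM in experiment 2 and fell from 47.0 and 41.4 TPM to 1.18, 1.82, 4.67 and 7.17 TPM in experiment 1. HMOX1, which breaks down haem under oxidative stress, rose from 5.86 and 4.32 TPM to 40.2, 45.2, 44.8 and 54.5 TPM in experiment 1, with a difference of -3.06 ± 0.29 between the experiments (adjusted p = 9.4e-08). It stood at 4.96, 2.27, 4.51 and 5.99 TPM against 3.84, 3.68, 5.48 and 5.89 TPM in experiment 2.

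Smooth muscle and mesenchymal genes rose in experiment 1 together with fibroblast markers. ACTA2, the actin of smooth muscle and activated fibroblasts, went from 46.7 and 54.8 TPM to 367, 335, 483 and 519 TPM in experiment 1 (3.03 ± 0.18, adjusted p = 3e-06) and stood at 5.05, 4.09, 5.70 and 6.32 TPM against 5.13, 5.89, 5.77 and 4.84 TPM in experiment 2. In bulk samples, more cells of a type and more RNA per cell cannot be told apart. Of the mesenchymal state list, 11 of 18 rose and 3 fell in experiment 1 (median 1.24), against 8.09% and 8.10% of all genes. In experiment 2, 7 of 16 rose and 3 fell (median 0.096), against 21.0% and 13.6% of all genes. The same 5 genes rose in both, among them VIM, the filament protein of mesenchymal cells, from 40.0, 39.7, 30.7 and 30.4 TPM to 58.4, 57.3, 53 and 61.0 TPM in experiment 2 (0.70 ± 0.10) and from 49.6 and 48.9 TPM to 210, 173, 213 and 212 TPM in experiment 1 (2.01 ± 0.11). FN1, or fibronectin, rose by 1.64 ± 0.21 and 2.53 ± 0.23, and the cadherin CDH2 by 1.24 ± 0.14 and 1.88 ± 0.23. Over all 10 fibroblast markers, the summed level was between 80.1 and 126 TPM with sgKLF5 and between 23.0 and 24.0 TPM with sgRosa in experiment 1. COL1A1, COL1A2, COL3A1 and POSTN rose there and PDGFRA fell. COL1A2 went from 5.49 and 6.46 TPM to 41.0, 30.3, 25.6 and 37.5 TPM. DCN, a defining fibroblast gene, was listed at 0 in both sgRosa libraries of experiment 1. In experiment 2 the summed level lay between 6.95 and 11 TPM with sgKLF5 and between 5.53 and 8.90 TPM with sgRosa, COL1A2 reached at most 0.162 TPM, PDGFRB was listed at 0 in all 8 libraries, and POSTN in the 4 sgRosa libraries. The part of the fibroblast markers in the result of experiment 1 was not tested. Endothelial markers summed to between 23.3 and 31.7 TPM with sgKLF5 and between 12.6 and 14.5 TPM with sgRosa in experiment 2. Of the 4 tested there, CDH5 rose and VWF fell. With sgCDK1 the sum was between 55.6 and 62.6 TPM. In experiment 1 it was between 8.90 and 15.0 TPM with sgKLF5 and between 9.92 and 10.0 TPM with sgRosa. IGFBP7 and CD81 rose in experiment 1 as well. IGFBP7 went from 10.9 and 11.5 TPM to 74.2, 77.2, 73.7 and 86.6 TPM, and in experiment 2 it was listed at 0 in 3 sgRosa libraries and at 11.5 TPM in library 3, the library with 10 genes of its own. Without that library the difference between the experiments was -2.41 for IGFBP7 (adjusted p = 2e-07) and -2.18 for CD81 (adjusted p = 1.8e-05), against -3.32 and -2.92 with it. MSMB, a secreted protein of glands, stood at 10.3, 7.36, 8.18 and 10.9 TPM against 1.44 and 0 TPM in experiment 1 and at no more than 1.51 TPM in any library of experiment 2.

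Antioxidant genes under the control of NRF2 and amino acid stress genes also differed. Of 22 NRF2-type genes, 17 rose in experiment 1 (median 0.67), against 7 that rose and 2 that fell in experiment 2 (median 0.12). Among all genes, 8.09% rose and 8.10% fell in experiment 1, and 21.0% rose and 13.6% fell in experiment 2. The NRF2-type falls in experiment 2 thus lay under the share of all genes. AKR1C1, a reductase of steroids and carbonyls, rose from 345 and 362 TPM to 1613, 1778, 2094 and 1941 TPM in experiment 1 (2.38 ± 0.10) and from 127, 128, 160 and 169 TPM to 562, 474, 328 and 392 TPM in experiment 2 (1.56 ± 0.16), and its reads can be shared with AKR1C2. FTL, the light chain of the iron store ferritin, rose in both and by more in experiment 1 (0.71 ± 0.08 and 1.62 ± 0.09). The test of the difference called 15 of the 22 more positive in experiment 1, and 6 without sgRosa library 1 of experiment 1. In the integrated stress and unfolded protein response, 12 of 25 fell and 2 rose in experiment 2, and 1 fell and 12 rose in experiment 1. The 2 rises in experiment 2 and the 1 fall in experiment 1 lay under the shares of all genes. Without sgRosa library 1 of experiment 1, 5 rose there. ATF3, a transcription factor of stressed cells, fell by 0.62 in experiment 2 and rose from 11.4 and 14.3 TPM to 28.6, 25.7, 20.5 and 22.0 TPM in experiment 1 (0.86 ± 0.15). The amino acid transporter SLC7A5 fell in both (-1.02 ± 0.11 and -0.54 ± 0.11), while its heavy chain SLC3A2 fell by 0.37 in experiment 2 and rose by 0.30 ± 0.06 in experiment 1.

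DNA replication genes rose in experiment 2. Of 39 measured, 29 rose (median 0.43). In experiment 1 the limma test called 0 in either direction (median 0.021), and 1 was higher and 0 lower at an unadjusted p under 0.05. RRM2, the ribonucleotide reductase subunit that limits the supply of deoxynucleotides, stood at 70.9, 63.7, 63.7 and 61.0 TPM against 45.2, 38.9, 30.7 and 27.8 TPM in experiment 2 (0.87 ± 0.12) and at 71.1, 73.1, 58.2 and 61.3 TPM against 63.6 and 59.9 TPM in experiment 1. The mean level of the list was 5.53 and 5.43 on the log2(TPM + 1) scale in sgRosa libraries 1 and 2 and 5.13 and 5.08 in libraries 3 and 4, while the sgKLF5 libraries lay between 5.68 and 5.81. Without sgRosa libraries 3 and 4, 10 of the 39 rose. The difference between the experiments was positive in 18, and in 4 without sgRosa library 1 of experiment 1. Of 37 mitosis genes, 11 fell in experiment 2, against 13.6% of all genes, among them CDC20, an activator of the anaphase-promoting complex (-0.39 ± 0.06), and in experiment 1 2 rose and CDC20 fell (-0.40 ± 0.07), shares under those of all genes (8.09% and 8.10%). Among the p53 targets, the inhibitors and death genes that p53 switches on after damage, 8 of 25 rose and 4 fell in experiment 2 and 4 rose and 5 fell in experiment 1, with GDF15 and BAX higher in both, while 21.0% of all genes rose and 13.6% fell in experiment 2. Without sgKLF5 library 1, 4 rose in experiment 2, and in experiment 1 a single member rose without sgRosa library 2 and all 5 falls were lost without sgRosa library 1.

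**Figure D5:**
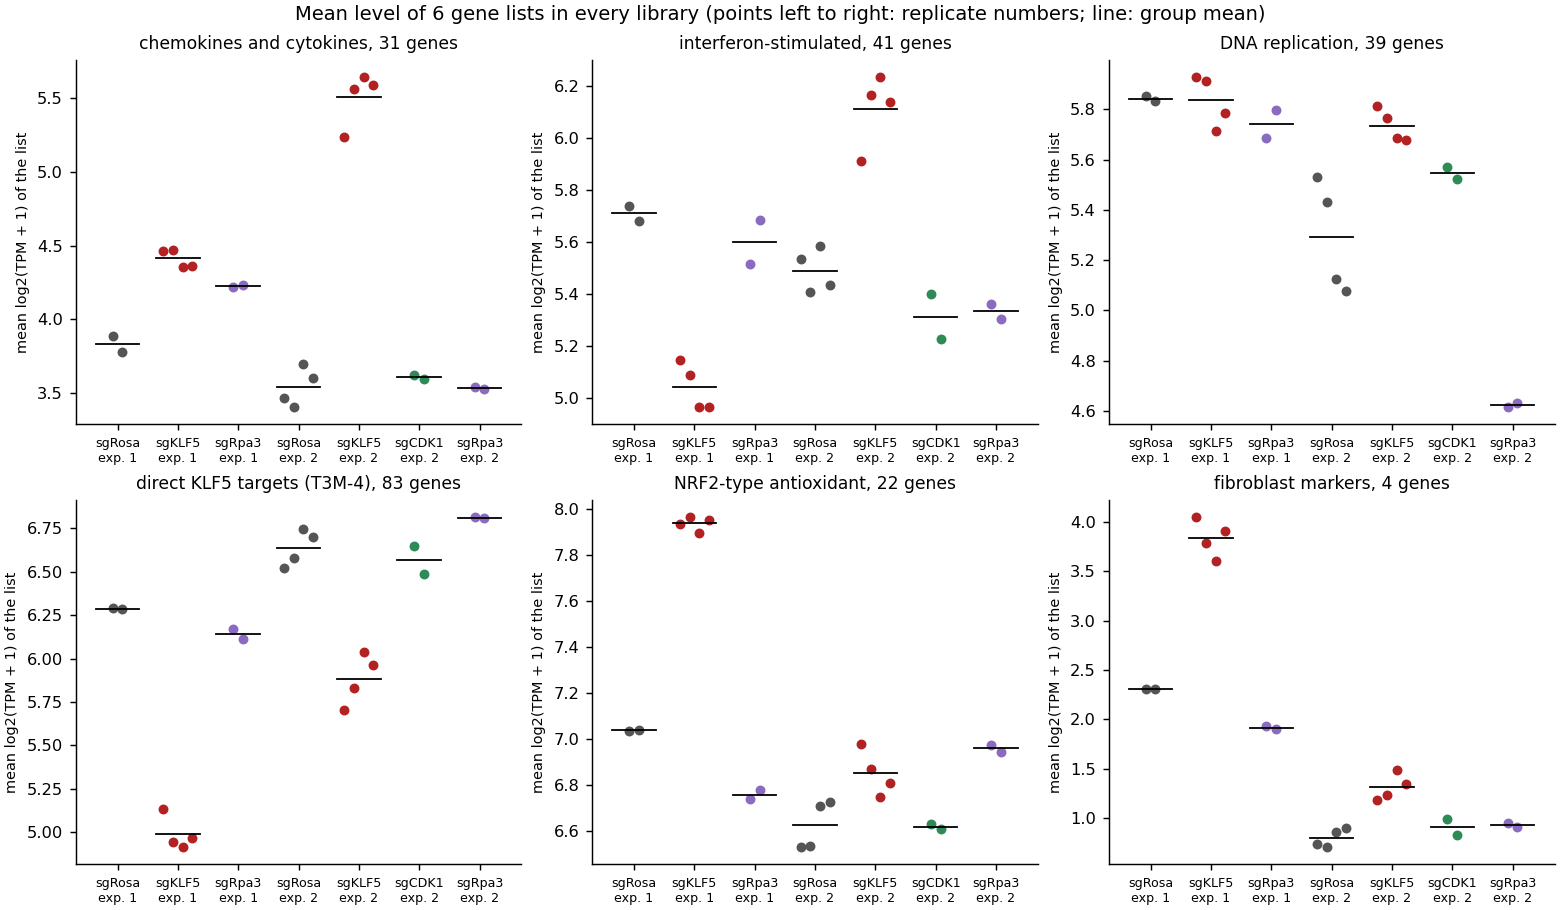
Mean log2(TPM + 1) over the members of 6 gene lists in each library, with 1 point a library in order of replicate number and a line at the group mean, for both experiments; the axes do not start at 0. Interferon-stimulated genes are higher with sgKLF5 than with sgRosa in experiment 2 and lower in experiment 1, and the 4 sgRosa points of experiment 2 lie between 5.08 and 5.53 for DNA replication. The 4 fibroblast markers shown are those tested in the comparison of the experiments.

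Cholesterol synthesis genes held more falls than rises in experiment 2, where 13.6% of all genes fell and 21.0% rose. Of 23 cholesterol synthesis genes, 16 fell and 1 rose there (median -0.45), and 5 fell and 2 rose in experiment 1, where all 5 had also fallen in experiment 2. Without sgRosa library 1 of experiment 1, 2 fell there. INSIG1, the sterol sensor that restrains the pathway, fell from 115, 101, 127 and 138 TPM to 34.9, 42.2, 59.6 and 50.0 TPM in experiment 2 and stood at 39.2, 42.5, 31.6 and 30.6 TPM against 37.1 and 36.1 TPM in experiment 1, a difference of -1.33 ± 0.21 (adjusted p = 0.0001). Of 24 fatty acid synthesis genes, 10 fell and 3 rose in experiment 2 and 7 fell and 1 rose in experiment 1, or 3 fell without its sgRosa library 1. Of all genes, 8.10% fell and 8.09% rose in experiment 1. SCD, the desaturase that makes oleate, fell from 442, 429, 618 and 648 TPM to 89.4, 106, 149 and 126 TPM in experiment 2 (-2.17 ± 0.17) and from 192 and 185 TPM to 118, 97.4, 88.0 and 91.0 TPM in experiment 1 (-0.93 ± 0.13). SREBF1, the master factor of the pathway, fell in both (-1.79 ± 0.21 and -0.86 ± 0.11).

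Against sgCDK1 and sgRpa3, the knockouts of essential genes in experiment 2, 3358 of 12380 genes were higher with sgKLF5 (27.1%) and 2441 lower (19.7%), together 46.8%. Fewer genes were called in either direction against sgCDK1 alone, with counts in the last section. Of the 2599 genes higher than with sgRosa, 2214 were also higher than with the essential knockouts, and of the 1685 lower genes 1473 were also lower. The 2 comparisons share the same 4 sgKLF5 libraries, so these overlaps are not independent evidence. Both experiments and the comparison with sgCDK1 and sgRpa3 together gave 300 higher and 504 lower genes. CXCL1 stood at 30.8 and 38.6 TPM with sgCDK1 and at 27.9 and 25.7 TPM with sgRpa3, and was higher with sgKLF5 by 4.31 ± 0.20. CXCL6 and CSF3 differed by 4.72 ± 0.22 and 4.37 ± 0.20, and PRSS2, at 3.93, 7.17, 1.08 and 1.38 TPM in these 4 libraries, by 4.95 ± 0.25. Chemokines and cytokines were higher in 24 of 31 and lower in 3, interferon-stimulated genes higher in 29 of 41 and lower in 4, and direct KLF5 targets lower in 67 of 83 and higher in 3. TNNC1 stood at 108 and 122 TPM with sgCDK1 and at 228 and 239 TPM with sgRpa3 (-3.62 ± 0.24), and LOXL4 at 25.5, 21.8, 76.0 and 70.4 TPM (-3.40 ± 0.24). CLIC3, an intracellular chloride channel protein, stood at 26.8, 24.8, 96.9 and 91.9 TPM, against 2.12, 4.42, 4.05 and 6.58 TPM with sgKLF5 (-3.32 ± 0.26). CCL21, an attractant of lymphocytes, lay at 28.1 and 31.9 TPM with sgCDK1, at 5.50 and 4.62 TPM with sgRpa3 and at no more than 0.512 TPM with sgKLF5, and CD52, a small surface antigen of lymphocytes, fell by 3.29 in this comparison. DNA replication genes were higher with sgKLF5 in 34 of 39.

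Experiment 1 held 2 sgRpa3 libraries, which were compared in no test and are given as values. They did enter the expression filter and the estimate of spread in the fits that hold experiment 1. There the mean log2(TPM + 1) level of chemokines and cytokines was 4.22 and 4.23 with sgRpa3, against 3.89 and 3.78 with sgRosa and between 4.36 and 4.47 with sgKLF5. In this list sgRpa3 thus stood nearer to sgKLF5 than to sgRosa in experiment 1, while in experiment 2 it stood at 3.54 and 3.52, within the sgRosa range of 3.4 to 3.69. In single genes, CXCL1 was at 49.7 and 40.4 TPM, CXCL8 at 66.2 and 80.2 TPM and IL6 at 8.79 and 7.49 TPM with sgRpa3 in experiment 1, each above both sgRosa libraries and below all 4 sgKLF5 libraries. PRSS2 was at 4.92 and 4.41 TPM, below both sgRosa libraries. Direct KLF5 targets were at 6.17 and 6.11 with sgRpa3 in experiment 1, against 6.29 and 6.28 with sgRosa and between 4.91 and 5.14 with sgKLF5. Interferon-stimulated genes were at 5.52 and 5.68 with sgRpa3, against a highest sgKLF5 level of 5.15.

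The remaining lists moved less or without a common direction, and their counts are to be read against the 21.0% of all genes that rose and the 13.6% that fell in experiment 2 and the 8.09% and 8.10% in experiment 1. Mucins fell in 3 of 6 and rose in 1 in experiment 2 and fell in 3 and rose in 2 in experiment 1, with MUC1 (-1.78 ± 0.55 and -0.98 ± 0.15) and MUC4 (-1.50 ± 0.50 and -1.59 ± 0.22) lower in both. Without sgRosa library 4 all 3 falls of experiment 2 were lost (adjusted p = 0.053 for MUC1 and 0.072 for MUC4), and without sgRosa library 2 its rise was lost. Of the KLF and SP family, 3 of 19 rose and 5 fell in experiment 2 and 3 fell in experiment 1, and KLF8 and KLF13 fell in both (KLF13 -0.93 ± 0.12 and -1.65 ± 0.18). The share that rose in experiment 2 lay under that of all genes, and in experiment 1 a single member fell without either of the sgRosa libraries and 6 fell without sgKLF5 library 1. Among endodermal transcription factors, FOXA1 and FOXA2 rose by 0.48 ± 0.12 and 0.73 ± 0.15 and GATA6 fell by 0.83 in experiment 2, and in experiment 1 the limma test called 0 of 7, with 2 lower at an unadjusted p under 0.05. In the BCL2 family, 6 of 16 rose and 4 fell in experiment 2. The death-promoting BMF went from 3.54, 3.02, 3.89 and 5.59 TPM to 14.9, 14, 8.73 and 10.2 TPM in experiment 2 and from 1.95 and 2.67 TPM to 28.9, 27.8, 22.5 and 26.9 TPM in experiment 1 (1.36 ± 0.19 and 3.06 ± 0.16), and the survival gene BCL2L1 fell in both (-0.62 ± 0.09 and -0.85 ± 0.07). SULF2, which trims heparan sulfate, fell in both (-0.95 ± 0.10 and -1.99 ± 0.09). INHBA, a subunit of activin, rose from 4.42, 4.16, 2.78 and 2.29 TPM to 32.0, 34.4, 30.3 and 28.6 TPM in experiment 2 (2.90 ± 0.21). Of 21 genes around RUVBL1 and RUVBL2, 4 rose in experiment 2, under the share of all genes, and 2 without sgKLF5 library 1. In experiment 1 PDRG1 rose and RUVBL1 fell, and the rise was lost on leaving out any 1 library. Of 59 cytosolic ribosomal proteins, 1 rose and 4 fell in experiment 2 and 2 rose in experiment 1, shares that lie under the 34.6% and 16.2% of all genes called in either direction.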

How the data were processed

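The values that the authors deposited are TPM per gene and library, made with kallisto on hg38 from single-end reads of polyA RNA and summed per gene with tximport. The paper also reports that transcripts of low abundance were dropped (the limit is not given in the sources used here). It does not state whether this came before the TPM. TPM keep no read depth, so no counting error can be given. The BxPC-3 table (27 libraries, 19875 gene names) was used, and the tables of other lines were not used here. Genes whose mean reached 1 TPM in the libraries of a fit were tested with limma 3.58.1 (trend, in R 4.3.3) on log2(TPM + 1). The test was two-sided, with Benjamini-Hochberg adjustment over all genes tested and a threshold of 0.05. The method was also run on simulated data with independent normal noise. That simulation leaves out the pairs of libraries described above, so it cannot tell how the method fares with them. Each fit held all BxPC-3 libraries of its experiment, with sgRUVBL1 and sgRUVBL2 in experiment 2 and sgRpa3 in experiment 1. The fit of the difference held both experiments. With the compared groups alone, 3223 genes were higher and 2210 lower in experiment 2. The comparison with sgRosa in experiment 2 and the contrast against the mean of sgCDK1 and sgRpa3 shared 1 estimate of spread. The difference between the experiments was an interaction term. Genes were named by size of change within fixed rules and lists, and single genes outside them, such as PI3, IL18 and IL1RN and the genes whose promoters are shown, were chosen after their values were seen. The lists and members were chosen with earlier results of these data known. Promoters of RefSeq on GRCh38.p14 were searched for motifs on both strands. A few members counted in the lists are not reported here by name.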

Additional observations from a re-analysis of the deposited data

Results flagged for a closer look

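In 14 of 483 groups of 4 libraries, a single library lay apart by more than Dixon's 95% limit for the ratio of its gap to the range of the group (the value in brackets), where chance gives about 1 in 20. In sgKLF5 of experiment 1 these were BATF (0.969) and KLF8 (0.905) in library 1, ID1 (0.917) and VIM (0.946) in library 2, MMP28 (0.882) in library 3 and CXCL6 (0.936) in library 4. In sgKLF5 of experiment 2 they were CEACAM6 (0.841), MMP9 (0.924) and PHLDA3 (0.844) in library 1 and SPINK5 (0.844) in library 3. In sgRosa of experiment 2 they were COL17A1 (0.904), KRT17 (0.848) and PKP3 (0.932) in library 2 and S100A9 (0.840) in library 3.

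The effect of sgKLF5 differed between the experiments by the interaction test for many of the named genes. Among genes whose difference was looked at singly, the 20 that passed the test are given here. Values are experiment 2 minus experiment 1 on the log2(TPM + 1) scale. IL6, PRSS2 and MSLN were looked at as well and did not pass. The difference was positive for STC1 (4.02), SPINK4 (3.64), KRT6B (3.47), CXCL10 (3.47), CXCL11 (3.33), MMP9 (3.3), OAS2 (2.72), USP18 (2.59), CSF3 (2.54), CXCL8 (2.21), FGFBP1 (1.57) and RRM2 (0.78). It was negative for IGFBP7 (-3.32), HMOX1 (-3.06), ACTA2 (-3.06), MSMB (-3.01), CD81 (-2.92), INSIG1 (-1.33), FTL (-0.91) and SLC3A2 (-0.67). Without sgRosa library 3 of experiment 2 the differences of IGFBP7 and CD81 were -2.41 and -2.18. For these genes the control of experiment 2 rests on sgRosa library 3, at 11.5 and 9.48 TPM, against at most 0.683 TPM for CD81 in the other 3.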

How the results depend on the processing

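Another pseudocount (0.1), no filter on low values, a minimum of 5 TPM, median-of-ratios scaling and a fit of the compared groups alone left each count that leads a comparison within 1.5 times its value. Leaving out 1 library at a time gave between 2006 and 2759 higher and 1331 and 1648 lower genes in experiment 2, 487 and 1120 higher and 539 and 1212 lower in experiment 1, 652 and 1626 positive and 434 and 867 negative differences, and 2783 and 3102 higher and 1925 and 2315 lower against sgCDK1 and sgRpa3. It gave between 247 and 481 genes higher in both experiments and 344 and 606 lower. With 1 sgRosa library left in experiment 1, that library is assumed to vary like the other groups. The lists gave between 24 and 26 chemokines higher in experiment 2 and 13 in experiment 1, 27 and 30 interferon-stimulated genes higher in experiment 2 and 18 and 25 lower in experiment 1, with 28 and 31 positive differences, 23 and 32 DNA replication genes, 63 and 67 direct targets lower in experiment 2 and 64 and 71 in experiment 1, and 13 and 17 NRF2-type genes. Pairs of libraries were left out as alternatives chosen after seeing the data. Without sgRosa libraries 3 and 4 of experiment 2, 1356 genes were higher and 877 lower, 10 DNA replication genes rose, and 704 positive and 440 negative differences were called. Without sgKLF5 libraries 1 and 2 of experiment 1, 2330 genes were lower and 2317 differences positive, and without 3 and 4, 751 were positive. Against sgRpa3 alone, the counts of higher and lower genes stayed within 1.5 times those against both knockouts. Against sgCDK1 alone, 1937 genes were higher and 1421 lower. The cause was not tested. KLF5 in experiment 1 (-0.08) changed sign to 0.19 without sgKLF5 libraries 3 and 4 and with the replicate block, and lay between -0.20 and 0.037 when 1 library was left out. After scaling by the median of ratios, 52.0% of differences were positive, from 61.4%, and 50.7% of genes called against sgCDK1 and sgRpa3 were higher, from 57.9%. The main fits did not pair libraries by replicate number. In experiment 2, same-numbered deviations correlated at 0.19, 0.027, 0.19 and 0.13, and differently numbered ones between -0.23 and 0.19. With the replicate block the counts were 2759 and 1698 in experiment 2, 1047 and 831 in experiment 1, 887 and 784 for the difference and 3751 and 2308 against sgCDK1 and sgRpa3. In experiment 1, blocks 3 and 4 each hold a single sgKLF5 library and no other. The blocked effect of experiment 1, also within the difference, thus rests on sgKLF5 libraries 1 and 2 alone. Of 344 named gene results, 8 lost their call under scaling, 4 without a filter, 3 with the other pseudocount, 7 with the replicate block and 1 with the compared groups alone, and calls were lost 78 times over all fits that left out 1 library and 25 times over those that left out a pair. TPM give no depth, so no limit from counting can be stated.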
